A study of Mus musculus with 12 samples.

Results

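The BCL2 family sets whether the outer mitochondrial membrane of a cell is opened during apoptosis, and 10 of its genes were followed here in mouse kidney: the anti-apoptotic Mcl1, Bcl2 and Bcl2l1, the pore-forming effectors Bax and Bak1, and the BH3-only genes Bcl2l11, Pmaip1, Bbc3, Bid and Bad. Each gene was read from the probe set annotated to that symbol alone, and where a gene had several, from the one with the highest mean over the 12 arrays. Of the 10 genes, 9 had such a probe set, among 22180 genes measured this way and 34472 probe sets in all. Bax was not analysed here, so Bak1 alone stands for the effectors. The 9 genes measured were 3 anti-apoptotic and 6 pro-apoptotic members.

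In healthy cells the anti-apoptotic proteins bind the BH3-only proteins and the effectors and hold them inactive. BH3-only proteins are made or activated under stress, occupy the anti-apoptotic proteins and activate BAX and BAK, which then release cytochrome c and start the caspase cascade. In the kidney, tubular cells are known to die by this route and by regulated necrosis after ischemia and reperfusion, and several BH3-only genes and Mcl1 are known to respond to stress at the level of transcription.

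The study asked how deletion of the histone deacetylase HDAC2 altered the kidney's response to warm ischemia, with 3 arrays in each of 4 groups. All animals were female mice of 8 to 12 weeks, and all groups, the wild type included, were given tamoxifen at 100 mg/kg daily for 5 days with 7 days of recovery. The wild type groups (WT) are labelled Wild type ERT2cre and the deleted groups (HDAC2-/-) HDAC2fl/fl-ERTcre. The methods place this tamoxifen-activated Cre under the ubiquitin C promoter, which is active in most cell types, so the deletion was not aimed at one kidney cell type. The study itself describes its controls as wild type B6 mice and mentions no Cre for them. The sources thus differ on whether the WT animals carried the Cre. If they did not, Cre and HDAC2 deletion cannot be told apart. In the ischemic WT and ischemic HDAC2-/- groups the left renal pedicle was clamped for 28 min, the other kidney was removed, and the clamped kidney was taken at 4 h of reperfusion. The other 2 groups had no ischemia, and no sham-operated group was described, so surgery and ischemia cannot be told apart. The labels name the tissue as renal cortex, where the methods speak of the kidney. The study describes the 3 arrays of a group as independent replicates, and the labels do not say whether each came from its own animal.

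All values are log2 intensities as deposited, on which a difference of 1 is a 2-fold change. Arrays of 1 group correlated at 0.983 to 0.994. Proximal tubule markers were high on every array, with a mean level of 12.07 to 12.47 over 8 genes. The probe set for Hdac2, the targeted gene, read 7.85, 7.9 and 8.01 in WT, 7.68, 7.83 and 8.45 in HDAC2-/-, 7.93, 7.94 and 8.17 in ischemic WT, and 7.95, 8.12 and 8.32 in ischemic HDAC2-/-. These ranges overlap between the genotypes. The position of its probes relative to the deleted exons is not given in the sources used here, so these values do not check the genotype labels.

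Mcl1 and Bcl2l1 rose in both genotypes after ischemia, and Pmaip1 rose and Bad fell in WT. Of these genes, the promoters of Mcl1, Bcl2l1 and Bad are printed here. The promoter of Pmaip1 was not examined, and its absence says nothing of the response of that gene. Sequences are from RefSeq (GRCm38.p6), 250 bases up to the transcription start, 5′ to 3′ on the gene's strand, with matches to the motifs searched in capitals. Mcl1 has 1 annotated start (chr3:95658471-95658720, plus strand), Bcl2l1 has 3, of which the second is shown (chr2:152830718-152830967, minus strand), and Bad has 2, of which the first is shown (chr19:6941611-6941860, plus strand).
Mcl1: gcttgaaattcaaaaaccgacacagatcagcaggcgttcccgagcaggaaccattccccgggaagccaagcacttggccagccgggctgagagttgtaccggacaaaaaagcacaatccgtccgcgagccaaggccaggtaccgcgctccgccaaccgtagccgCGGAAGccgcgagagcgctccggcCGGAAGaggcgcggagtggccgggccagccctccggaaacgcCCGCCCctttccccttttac
Bcl2l1: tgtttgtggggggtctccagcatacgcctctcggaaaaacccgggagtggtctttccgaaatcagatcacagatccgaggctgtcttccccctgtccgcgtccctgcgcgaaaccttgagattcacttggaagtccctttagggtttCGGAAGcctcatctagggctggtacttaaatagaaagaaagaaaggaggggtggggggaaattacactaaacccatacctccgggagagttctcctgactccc
Bad: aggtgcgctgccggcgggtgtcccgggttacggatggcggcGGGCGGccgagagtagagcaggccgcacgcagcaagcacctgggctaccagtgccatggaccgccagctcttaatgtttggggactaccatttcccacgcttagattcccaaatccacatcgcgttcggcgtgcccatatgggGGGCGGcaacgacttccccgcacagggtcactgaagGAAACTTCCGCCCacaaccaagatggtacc
The Mcl1 window held 2 copies of the ETS element CGGAAG, 86 and 62 bases before the start, and 1 GC box, GGGCGG, 20 bases before it. The Bcl2l1 window held 1 ETS element 103 bases before the start, and the windows at the other 2 starts held none of the motifs. The first Bad window held 3 GC boxes, 1 ETS element and 1 heat shock element unit pair, GAANNTTC, the last of which overlaps the ETS element and a GC box within 30 bases of the start, whereas the second window held none. Among 32851 promoters of this length, 13.6% held CGGAAG, 32.7% held GGGCGG and 6.69% held GAANNTTC on either strand. None of the printed windows matched the STAT element TTCNNNGAA (7.02% of promoters), the cyclic AMP and ATF element TGACGTCA (1.55%), the AP-1 element TGANTCA (6.75%), the hypoxia element core ACGTG (16.6%) or TATAAA (12.4%). The ETS element and the GC box were added to the search after the sequences had been seen. A match is a run of letters and not a site shown to be bound.

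After ischemia in WT, 3 of the 9 members rose (Mcl1, Bcl2l1 and Pmaip1), 1 fell (Bad) and 5 did not pass the test, at a Benjamini-Hochberg adjusted p under 0.05 in limma over all probe sets. Over all probe sets 6.55% rose and 7.17% fell in this comparison. In HDAC2-/-, 2 of the 9 members rose (Mcl1 and Bcl2l1) and none fell, where 2.94% of all probe sets rose and 1.97% fell. At an unadjusted p under 0.05 in either direction there were 5 members in WT and 5 in HDAC2-/-, where 25.1% and 16.9% of all probe sets reached that level. Each genotype's response was measured against its own unischemic group.

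**Figure D1:**
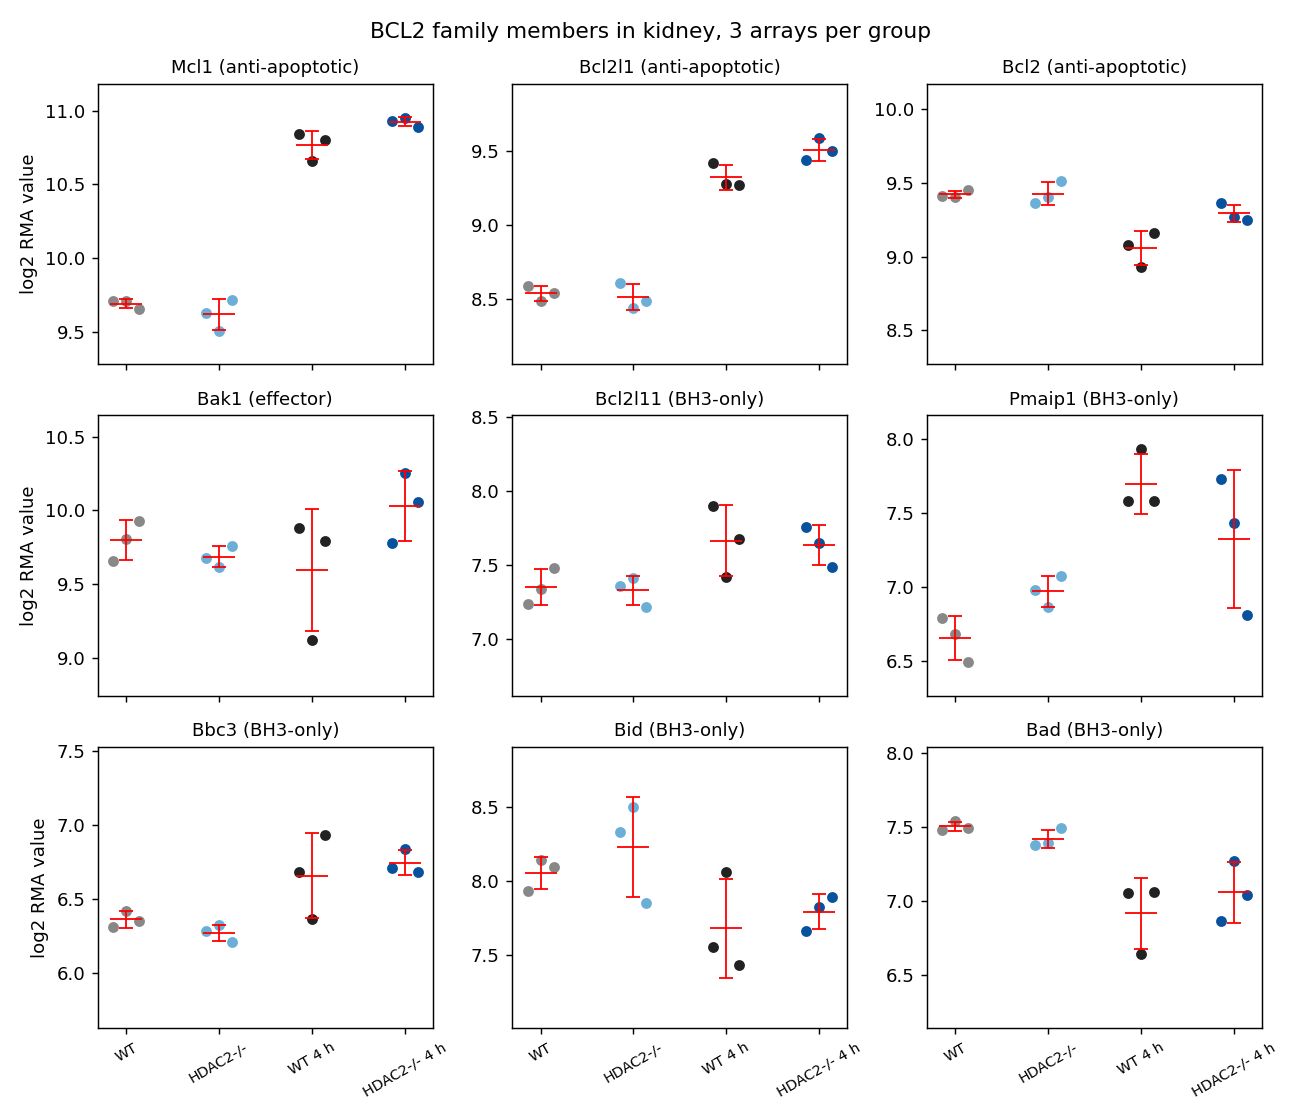
Deposited log2 level of the 9 members on each array (points), with the mean and SD of the 3 arrays of a group (lines), for WT, HDAC2-/-, and both 4 h after ischemia; the height of the scale is alike in all panels but its position is not. Mcl1 lay between 9.51 and 9.72 on the unischemic arrays and between 10.66 and 10.95 on the ischemic ones, while Bcl2 lay between 8.93 and 9.51 on all arrays.

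MCL1 is a short-lived anti-apoptotic protein on which the survival of many cell types depends. Mcl1 read 9.71, 9.71 and 9.66 in WT and 10.84, 10.66 and 10.8 in ischemic WT. It read 9.63, 9.51 and 9.72 in HDAC2-/- and 10.93, 10.95 and 10.89 in ischemic HDAC2-/-. Every ischemic array lay above every unischemic one. The rise was 1.07 in WT (SE 0.12, 2.1-fold, adjusted p = 9.47e-05) and 1.3 in HDAC2-/- (SE 0.12, 2.47-fold, adjusted p = 2.33e-05). A second, dimmer probe set for Mcl1 rose by 0.78 in HDAC2-/- (adjusted p = 0.0285), whereas its difference of 0.47 in WT did not pass the test (adjusted p = 0.124). Mcl1 was among the genes that the study had displayed from these same arrays, so its direction here is not independent evidence.

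Bcl2l1 encodes BCL-XL, an anti-apoptotic protein of the outer mitochondrial membrane. It read 8.59, 8.49 and 8.54 in WT and 9.42, 9.28 and 9.27 in ischemic WT. It read 8.61, 8.44 and 8.49 in HDAC2-/- and 9.44, 9.59 and 9.5 in ischemic HDAC2-/-. The ischemic and unischemic arrays did not overlap in either genotype. The rise was 0.78 in WT (SE 0.12, 1.72-fold, adjusted p = 0.000834) and 1 in HDAC2-/- (SE 0.12, just under 2-fold, adjusted p = 0.000269). Leaving out each array in turn kept both calls for Mcl1 and for Bcl2l1.

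Bcl2, the founding member, did not follow Mcl1 and Bcl2l1. It read 9.41, 9.4 and 9.45 in WT and 9.08, 8.93 and 9.16 in ischemic WT, with all 3 ischemic arrays below the others. The difference of -0.36 (SE 0.12) had an adjusted p of 0.0599. In HDAC2-/- the arrays read 9.36, 9.4 and 9.51, against 9.36, 9.27 and 9.25 after ischemia, and the groups touched. That difference was -0.13 (SE 0.12, adjusted p = 0.688). A second, dimmer probe set for Bcl2 had overlapping arrays in both genotypes. It differed by -0.12 in WT (adjusted p = 0.696) and by 0 in HDAC2-/- (adjusted p = 0.995).

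BAK, the product of Bak1, is one of the proteins that form the pore in the outer mitochondrial membrane. Bak1 read 9.66, 9.81 and 9.93 in WT and 9.88, 9.12 and 9.79 in ischemic WT. It read 9.68, 9.62 and 9.76 in HDAC2-/- and 9.78, 10.25 and 10.06 in ischemic HDAC2-/-. One ischemic WT array lay well below all other arrays, and the ischemic HDAC2-/- arrays all lay above the unischemic HDAC2-/- ones. The differences were -0.2 in WT (SE 0.19, adjusted p = 0.59) and 0.34 in HDAC2-/- (SE 0.19, adjusted p = 0.406). The low array, replicate 2 of ischemic WT, also had the lowest mean over 104 small nucleolar and small nuclear RNA probe sets, at 7.53 where the other arrays had 7.91 to 8.74. Bak1 moved with that level over the arrays after the group means were taken out, by 0.59 per unit (adjusted p = 0.0215), and without that array its difference in WT was 0.03. No other member passed the test of this slope (adjusted p of 0.113 to 0.856). The cause of the low Bak1 value was not tested.

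PMAIP1, known as NOXA, is a BH3-only protein that binds MCL1 and promotes its degradation. Pmaip1 read 6.79, 6.68 and 6.49 in WT and 7.58, 7.93 and 7.58 in ischemic WT. It read 6.98, 6.86 and 7.07 in HDAC2-/- and 7.73, 7.43 and 6.81 in ischemic HDAC2-/-. The WT groups stood apart, whereas 1 ischemic HDAC2-/- array, replicate 3, lay below the unischemic arrays of that genotype. The rise in WT was 1.04 (SE 0.2, 2.06-fold, 95% interval 0.61 to 1.47, adjusted p = 0.00372). The difference of 0.35 in HDAC2-/- (SE 0.2, 95% interval -0.08 to 0.78) did not pass the test (adjusted p = 0.422), and it was 0.61 without that array (adjusted p = 0.0963).

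BAD is a BH3-only protein that is held inactive by phosphorylation under survival signalling. Bad read 7.48, 7.54 and 7.49 in WT and 7.05, 6.64 and 7.06 in ischemic WT. It read 7.38, 7.39 and 7.49 in HDAC2-/- and 6.86, 7.27 and 7.04 in ischemic HDAC2-/-. The ischemic arrays lay below the unischemic ones in both genotypes. It fell in WT by 0.59 on the log2 scale (SE 0.15, 1.5-fold, adjusted p = 0.017), and the difference of -0.36 in HDAC2-/- (SE 0.15) had an adjusted p of 0.216. The call in WT was lost without WT replicate 2 (-0.57, adjusted p = 0.0664) or without ischemic WT replicate 2 (-0.45, adjusted p = 0.0662).

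The other 3 BH3-only genes did not pass the test in either genotype. BBC3, known as PUMA, is induced by p53, and Bbc3 read 6.31, 6.42 and 6.35 in WT, 6.68, 6.36 and 6.93 in ischemic WT, 6.28, 6.32 and 6.21 in HDAC2-/-, and 6.71, 6.84 and 6.68 in ischemic HDAC2-/-. Only the HDAC2-/- groups stood apart, with differences of 0.3 in WT (SE 0.15, adjusted p = 0.226) and 0.47 in HDAC2-/- (SE 0.15, adjusted p = 0.0846). Bcl2l11 encodes BIM, which binds all the anti-apoptotic members, and its differences were 0.31 in WT (adjusted p = 0.203) and 0.3 in HDAC2-/- (adjusted p = 0.32), with group means of 7.35 ± 0.12 in WT, 7.67 ± 0.24 in ischemic WT, 7.33 ± 0.1 in HDAC2-/- and 7.63 ± 0.14 in ischemic HDAC2-/- (SD, n = 3). BID is cut by caspase 8 and links the death receptors to mitochondria. Bid was at 8.05 ± 0.11 in WT, 7.68 ± 0.33 in ischemic WT, 8.23 ± 0.34 in HDAC2-/- and 7.79 ± 0.12 in ischemic HDAC2-/- (SD, n = 3), with differences of -0.37 (adjusted p = 0.248) and -0.44 (adjusted p = 0.254).

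With both genotypes averaged, 4 of the 9 members rose after ischemia (8.52% of all probe sets) and 1 fell (9.92%). Mcl1 rose by 1.19 (SE 0.08, adjusted p = 6.87e-07), Bcl2l1 by 0.89 (SE 0.08, adjusted p = 9.44e-06), Pmaip1 by 0.7 (SE 0.14, adjusted p = 0.00311) and Bbc3 by 0.39 (SE 0.1, adjusted p = 0.0165), and Bad fell by 0.48 (SE 0.1, adjusted p = 0.00536). Bid (-0.41, adjusted p = 0.0503), Bcl2l11 (0.31, adjusted p = 0.0541) and Bcl2 (-0.25, adjusted p = 0.0581) lay just outside the threshold, and 8 members had an unadjusted p under 0.05 (28.6% of all probe sets). In whole tissue, fewer cells of a type and less RNA per cell cannot be told apart.

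**Figure D2:**
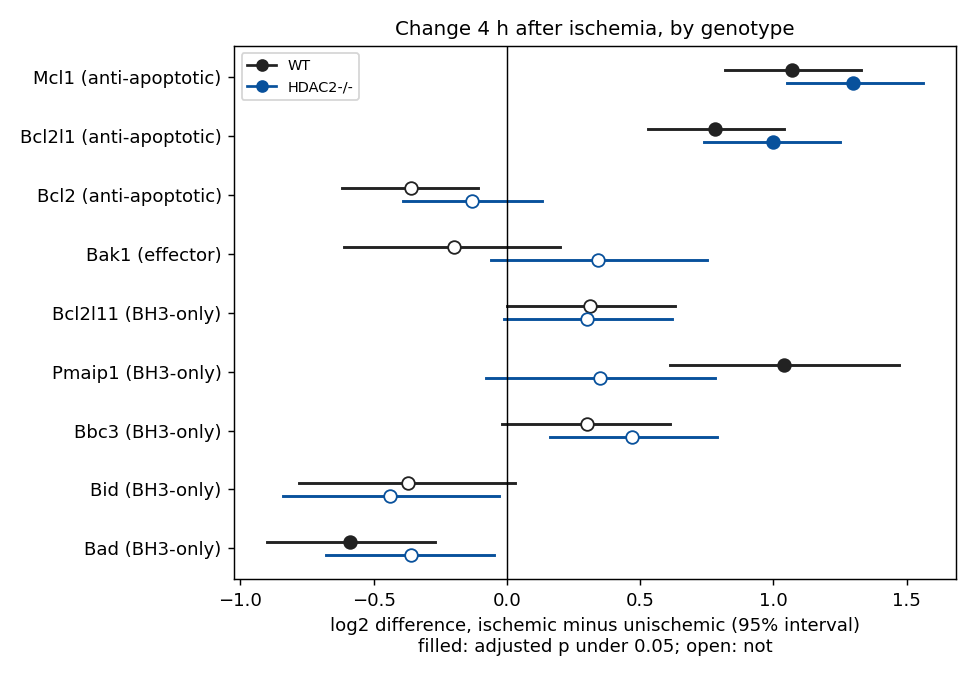
Log2 difference between ischemic and unischemic kidneys for each of the 9 members, in WT (black) and HDAC2-/- (blue), with 95% intervals; filled points had an adjusted p under 0.05. Mcl1 and Bcl2l1 are filled in both genotypes (1.07 and 1.3, 0.78 and 1), Pmaip1 (1.04) and Bad (-0.59) in WT alone.

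The anti-apoptotic members had the larger median difference after ischemia in both genotypes. It was 0.78 in WT and 1 in HDAC2-/-, beside 0.05 and 0.32 for the 6 pro-apoptotic members and -0.02 and -0.01 for all probe sets. The anti-apoptotic median was the value of Bcl2l1 in both genotypes, with Mcl1 above it and Bcl2 below 0. Both classes held members of each sign in both genotypes. Of the 3 anti-apoptotic members 2 rose in each genotype, and of the 6 pro-apoptotic members 1 rose and 1 fell in WT and none passed the test in HDAC2-/-. By non-overlap of the 3 against 3 arrays, 2 anti-apoptotic members were higher and 1 lower after ischemia in WT, with 1 higher and 1 lower among the pro-apoptotic members, where 13% of all probe sets were higher and 15.3% lower. In HDAC2-/-, 2 anti-apoptotic and 3 pro-apoptotic members (Bak1, Bcl2l11 and Bbc3) were higher and Bad was lower, where 9.91% of all probe sets were higher and 10.2% lower.

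The class medians were also taken on each array, as differences from the WT means. The anti-apoptotic median was 0.02, -0.02 and 0 in WT, -0.06, -0.1 and 0.03 in HDAC2-/-, 0.88, 0.74 and 0.73 in ischemic WT, and 0.9, 1.05 and 0.96 in ischemic HDAC2-/-. The pro-apoptotic median was -0.08, 0.03 and 0.01 in WT, -0.04, 0.01 and -0.09 in HDAC2-/-, 0.2, 0 and 0.16 in ischemic WT, and 0.16, 0.37 and 0.15 in ischemic HDAC2-/-. On each of the ischemic arrays the anti-apoptotic median lay above the pro-apoptotic one, and on the unischemic arrays both lay near 0. The anti-apoptotic median on the ischemic arrays was in each case the value of Bcl2l1, between a higher Mcl1 and a lower Bcl2. It therefore describes that gene rather than a shift shared by the class. The pro-apoptotic difference in WT rested on single arrays: it was -0.06, 0.24 and -0.04 without ischemic WT replicate 1, 2 and 3. In HDAC2-/- it was 0.19 without ischemic HDAC2-/- replicate 1. With the dimmer Mcl1 probe set the anti-apoptotic median was 0.47 in WT and 0.78 in HDAC2-/-.

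**Figure D3:**
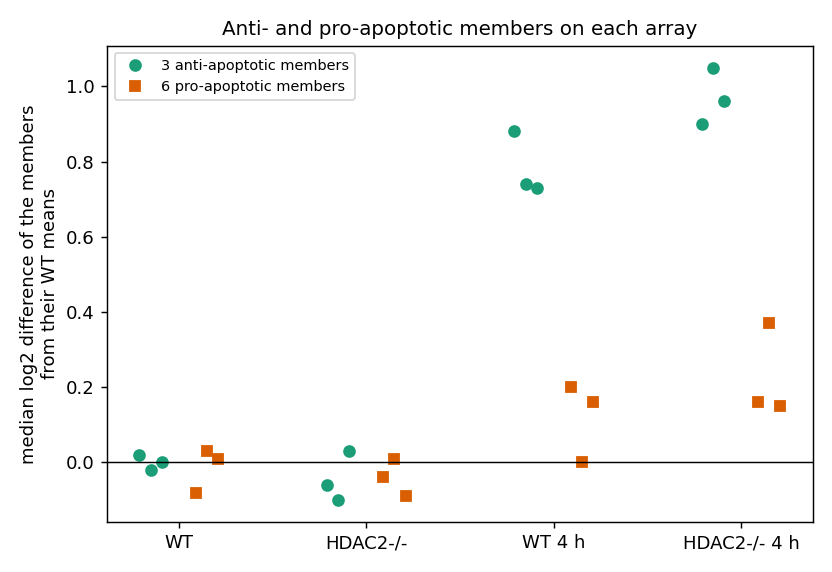
Median log2 difference of the 3 anti-apoptotic members (circles) and the 6 pro-apoptotic members (squares) from their WT means, 1 point per class and array, by group. After ischemia the circles lie between 0.73 and 1.05 and the squares between 0 and 0.37. The circles after ischemia are the values of Bcl2l1, the middle member of its class.

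HDAC2 deletion was compared with WT at 4 h after ischemia and without ischemia. No member passed the test in either comparison, as was true of all probe sets (0% rose and 0% fell in both). At an unadjusted p under 0.05 there was 1 member at 4 h (6.59% of all probe sets) and none without ischemia (2.38%).

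At 4 h all 3 anti-apoptotic members were higher on every ischemic HDAC2-/- array than on every ischemic WT array, and no pro-apoptotic member was without overlap, where 5.99% of all probe sets were higher and 4.08% lower in this way. The nearest ischemic WT and ischemic HDAC2-/- arrays read 9.16 and 9.25 for Bcl2, 9.42 and 9.44 for Bcl2l1, and 10.84 and 10.89 for Mcl1. Bcl2 was higher by 0.24 (95% interval -0.02 to 0.49, adjusted p = 0.763), Bcl2l1 by 0.19 (-0.07 to 0.44, adjusted p = 0.801) and Mcl1 by 0.16 (-0.1 to 0.41, adjusted p = 0.829). The two-sided exact permutation test gave p = 0.1 for each, the smallest that 3 against 3 arrays allow. The dimmer Mcl1 probe set was higher by 0.27 without overlap (95% interval -0.13 to 0.67, adjusted p = 0.812). The dimmer Bcl2 probe set differed by 0.13 with overlapping arrays (95% interval -0.18 to 0.44, adjusted p = 0.888). The medians at 4 h were 0.19 for the anti-apoptotic members (the value of Bcl2l1) and 0.1 for the pro-apoptotic members, beside 0.01 for all probe sets. The pro-apoptotic median was -0.03 without ischemic WT replicate 2. The smallest p was that of Bak1, which was higher by 0.43 in ischemic HDAC2-/- (95% interval 0.03 to 0.84, adjusted p = 0.747) with overlapping arrays. It was higher by 0.2 without ischemic WT replicate 2 and by 0.24 with the small RNA level in the fit. Without that array the differences of Bcl2, Bcl2l1 and Mcl1 were 0.17, 0.17 and 0.1.

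Without ischemia the median differences were -0.03 for the anti-apoptotic and -0.05 for the pro-apoptotic members, beside 0 for all probe sets. Pmaip1 was the only member without overlap, higher by 0.32 in HDAC2-/- (95% interval -0.11 to 0.75, adjusted p = 1, exact permutation p = 0.1), where 3.79% of all probe sets were higher and 3.83% lower without overlap. Bid differed by 0.17 (95% interval -0.23 to 0.58, adjusted p = 1). The intervals for Mcl1 (-0.33 to 0.18), Bcl2l1 (-0.28 to 0.23) and Bcl2 (-0.25 to 0.26) all included 0.

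The response to ischemia was then compared between the genotypes by the interaction term. No member passed the test and 0% of all probe sets rose or fell, and 1 of the 9 members had an unadjusted p under 0.05 (4.19% of all probe sets). This member was Pmaip1, whose response was lower in HDAC2-/- by 0.69 (log2 difference -0.69, SE 0.28, 95% interval -1.3 to -0.08, adjusted p = 0.956). It was -0.43 when replicate 3 of ischemic HDAC2-/- was left out and -0.89 when replicate 1 was. The response of Bak1 was higher by 0.55 (95% interval -0.03 to 1.12, adjusted p = 0.956) and by 0.31 without ischemic WT replicate 2. The calls of Pmaip1 and Bad in WT alone are therefore not shown to differ between the genotypes. The responses of Mcl1, Bcl2l1 and Bcl2 differed by 0.23 (-0.13 to 0.59), 0.21 (-0.15 to 0.57) and 0.23 (-0.13 to 0.6), in each case higher in HDAC2-/- with an interval that included 0.

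**Figure D4:**
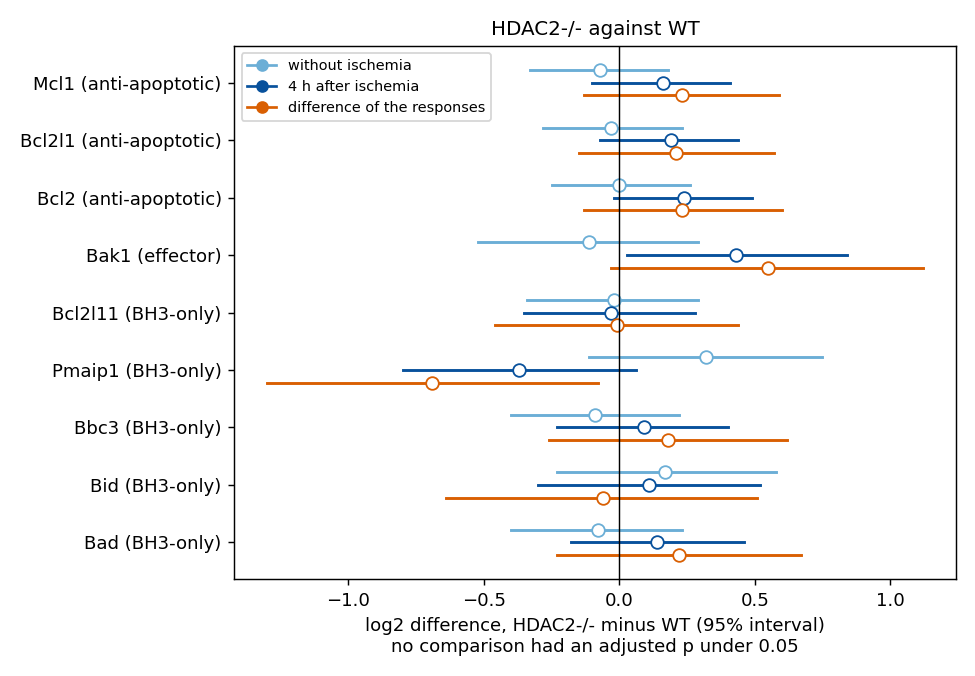
Log2 difference between HDAC2-/- and WT for each of the 9 members without ischemia, 4 h after ischemia, and as the difference of the responses to ischemia, with 95% intervals. No comparison had an adjusted p under 0.05; the intervals of Bak1 at 4 h (0.03 to 0.84) and of the Pmaip1 response (-1.3 to -0.08) leave out 0.

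Beyond the 10 members, 65 of 73 listed genes of the family and of the pathways around it were measured. The counts for these lists and for the cell markers below stand beside the shares over all probe sets. Those were 6.55% risen and 7.17% fallen in WT, and 2.94% and 1.97% in HDAC2-/-. Of the 4 other anti-apoptotic family genes measured, none passed the test in limma in either genotype, and none had an unadjusted p under 0.05. The smallest p among them was that of Bcl2l10, with differences of -0.28 in WT (adjusted p = 0.297) and -0.29 in HDAC2-/- (adjusted p = 0.381). The medians of the 4 genes were 0.04 and 0.08. Between the genotypes at 4 h, 1 of the 4 was higher and 3 were lower in HDAC2-/- (median -0.07). All 4 had overlapping arrays there and none passed the test.

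Of 9 other pro-apoptotic or BH3-containing family genes, 1 rose and 3 fell in WT and none passed the test in HDAC2-/- (1 had an unadjusted p under 0.05), with medians of -0.08 and -0.13. With array weights 3 of them fell in HDAC2-/- as well, and the interaction passed the test for none of the 9 in the fit without weights. Bok, a relative of the effectors, read 9.31, 9.01 and 8.73 in WT and 8.28, 8.24 and 7.9 in ischemic WT. It fell by 0.88 (SE 0.18, adjusted p = 0.00581), with a difference of -0.38 in HDAC2-/- (adjusted p = 0.308). The BH3-only genes Bik and Bmf fell in WT by 0.88 (SE 0.19, adjusted p = 0.00632) and 0.67 (SE 0.2, adjusted p = 0.0339), with differences of -0.36 and -0.37 in HDAC2-/- (adjusted p = 0.367 and 0.38). Becn1, whose product carries a BH3 segment and acts in autophagy, rose in WT by 0.68 (SE 0.14, adjusted p = 0.00451) and differed by 0.24 in HDAC2-/- (adjusted p = 0.417).

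Downstream of the mitochondria, in a list of 19 measured genes for the apoptosome, caspases and their inhibitors, 4 rose and 1 fell in WT and 3 rose and 1 fell in HDAC2-/-, with medians of -0.01 and -0.16. Birc3 and Birc2, which encode the inhibitors of apoptosis cIAP2 and cIAP1, rose in both genotypes, Birc3 by 1.19 and 1.26 (SE 0.18 each, adjusted p = 0.000795 and 0.00104) and Birc2 by 1.13 and 1.15 (SE 0.19 each, adjusted p = 0.00141 and 0.00247). Apaf1, the core of the apoptosome, read 6.05, 6.21 and 6.44 in WT, 7.19, 7.14 and 6.97 in ischemic WT, 6.26, 6.22 and 6.46 in HDAC2-/-, and 6.33, 6.69 and 6.6 in ischemic HDAC2-/-. The ischemic WT arrays stood above all the others. It rose by 0.87 in WT (SE 0.15, adjusted p = 0.0018) and differed by 0.23 in HDAC2-/- (adjusted p = 0.509), and neither its genotype difference at 4 h (-0.56, SE 0.15, adjusted p = 0.701) nor its interaction (-0.64, SE 0.21, adjusted p = 0.956) passed the test. Casp6, an executioner caspase, fell in HDAC2-/- by 0.92 (SE 0.21, adjusted p = 0.0217), with a difference of -0.64 in WT (adjusted p = 0.0598). The fallen count of this list went to 0 when HDAC2-/- array 1 or 2, or array 2 or 3 of the ischemic HDAC2-/- group, was left out in that genotype, where it was 2 without HDAC2-/- replicate 3, and in WT it went to 0 without WT replicate 2 or 3.

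Death receptors and their adaptors can reach the mitochondria through Bid. The list of these genes was broader and also held Tnfrsf12a, Tnfaip3 and the necroptosis gene Mlkl, so its counts do not describe the route through Bid alone. Of 18 genes of this list measured, 7 rose and 3 fell in WT and 5 rose and 1 fell in HDAC2-/-, with medians of 0.29 and 0.34. Tnfrsf12a, the receptor of the cytokine TWEAK, went from between 8.93 and 9.14 in WT to between 12.27 and 12.74 in ischemic WT, a rise of 3.45 (SE 0.14, adjusted p = 2.28e-08), and rose by 3.79 in HDAC2-/- (SE 0.14, adjusted p = 6.39e-09). Fas, a death receptor, rose by 1.21 and 0.87 (SE 0.18 each, adjusted p = 0.000707 and 0.0123). Tnfaip3, which encodes the NF-kB inhibitor A20, and Mlkl, the pore protein of necroptosis, rose in WT by 1.22 (SE 0.24, adjusted p = 0.00467) and 1.21 (SE 0.21, adjusted p = 0.00185), with differences of 0.82 and 0.76 in HDAC2-/- (adjusted p = 0.0761 and 0.0531). The count of 5 that rose in HDAC2-/- was 2 without HDAC2-/- replicate 1 or ischemic HDAC2-/- replicate 1, and 3 without HDAC2-/- replicate 2 or ischemic HDAC2-/- replicate 3.

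Of 15 measured genes known to act on family members, as transcription factors or through the stability of MCL1, 9 rose and 1 fell in WT and 5 rose and none fell in HDAC2-/-, with medians of 0.78 and 0.59. Atf3, a stress-induced transcription factor, rose by 4.65 and 4.31 (SE 0.29 each, adjusted p = 9.47e-07 and 1.8e-06). Ddit3, which encodes the endoplasmic reticulum stress factor CHOP, and Stat3 each rose by 1.43 in WT and 0.97 in HDAC2-/- (adjusted p = 0.000516 and 0.0121 for Ddit3, 0.0011 and 0.0247 for Stat3). Jun, a component of AP-1, rose by 2.07 in WT (SE 0.41, adjusted p = 0.00462) and differed by 1.34 in HDAC2-/- (adjusted p = 0.0859). The count that rose in HDAC2-/- was 2 when unischemic array 2 or ischemic array 1 of that genotype was left out, and 3 when ischemic array 3 was. In HDAC2-/-, 1 of the genes fell without WT replicate 1 or ischemic WT replicate 2. No gene of these lists passed the test between the genotypes at 4 h.

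**Figure D5:**
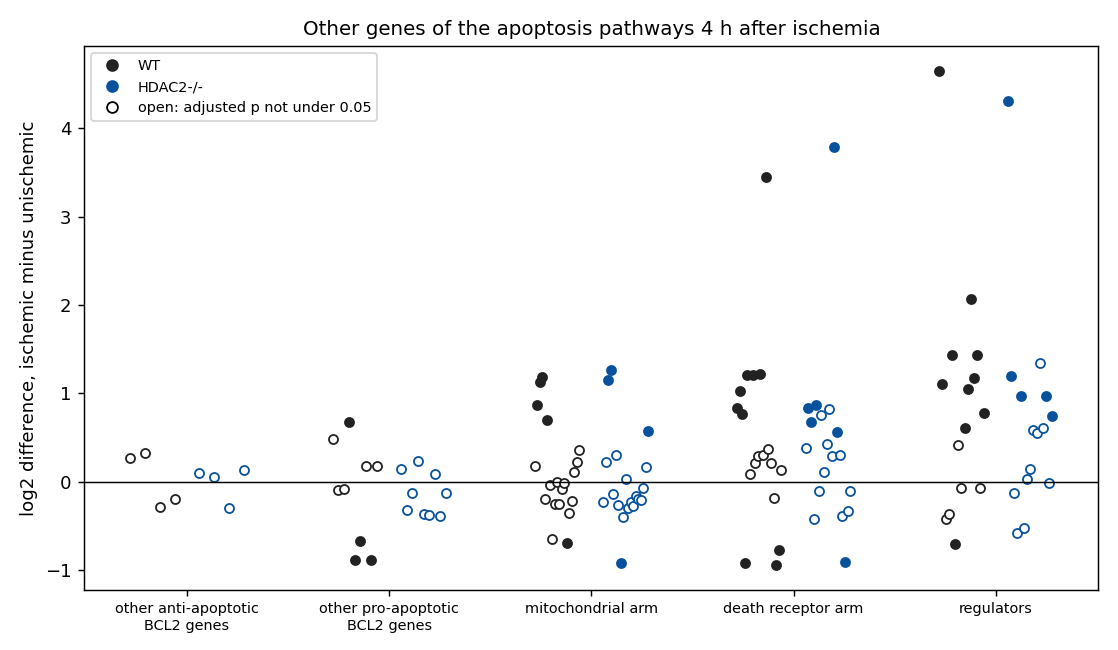
Log2 difference between ischemic and unischemic kidneys for each measured gene of 5 lists, in WT (black) and HDAC2-/- (blue); open circles did not have an adjusted p under 0.05. Atf3 (4.65 and 4.31) and Tnfrsf12a (3.45 and 3.79) lie highest, and the other family genes lie between -0.88 and 0.68.

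Mean levels of markers of other cells are given as ranges over the arrays of a group, and differences of these means were not tested. The mean of 9 macrophage and monocyte markers overlapped in every comparison. It ranged over 7.95 to 8.33 in WT, 7.62 to 8.49 in ischemic WT, 7.85 to 8.11 in HDAC2-/- and 7.86 to 8.19 in ischemic HDAC2-/-. The mean level of 8 neutrophil markers ranged over 4.98 to 5.38 in WT and 5.3 to 6.43 in ischemic WT, and over 5.08 to 5.2 in HDAC2-/- and 5.7 to 6.25 in ischemic HDAC2-/-, with 2 and 3 of the 8 called higher. The mean of 7 lymphocyte markers ranged over 5.86 to 6.07 in WT and 5.45 to 5.68 in ischemic WT, with 2 of the 7 called lower, and over 5.81 to 5.85 in HDAC2-/- and 5.42 to 5.71 in ischemic HDAC2-/-, with none called. Fibroblast and pericyte markers (5 genes) were at 9.11 to 9.47 in WT and 8.61 to 8.75 in HDAC2-/- without ischemia. After it they were at 8.76 to 9.49 and 8.53 to 8.7, ranges that nearly touched. Between the ischemic groups, 5 thick ascending limb markers ranged over 10.54 to 10.94 in WT and 9.79 to 10.47 in HDAC2-/-, and 4 adipocyte markers over 5.9 to 6.85 and 5.71 to 5.8. Smooth muscle markers (4 genes) were at 7.65 to 7.76 in WT and 7.77 to 8.14 after ischemia. In HDAC2-/- they were at 7.41 to 7.75 and 8 to 8.13. In WT, the mean of 6 endothelial markers was at 9.43 to 9.56 and 9.3 to 9.39 after ischemia. Single endothelial markers went both ways there, with 2 called higher and 2 called lower (differences of -1.13 to 0.75). For 4 podocyte markers these ranges were 8.72 to 8.86 and 8.43 to 8.71. In HDAC2-/-, the mean of 7 distal and collecting duct markers was at 10.84 to 10.96 and 10.31 to 10.73 after ischemia. Of these 7 markers 1 was called lower, and their differences ranged from -1.31 to 0.56. The ranges of these last lists overlapped in the other genotype. No marker of any list named here was called between the genotypes, with or without ischemia. Their part in the values of the BCL2 family members was not tested.

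For each member that rose or fell, the genes with the most similar pattern were those with the smallest root mean square difference over the 12 arrays, each gene taken as its difference from its WT mean. For Mcl1 these were Atf4, a transcription factor of the integrated stress response (0.112), S100a10 (0.148) and Mbnl2 (0.151). For Bcl2l1 they were Ercc1 (0.13), Sema3f (0.134) and Tead1 (0.14). For Pmaip1 they were Hspa8, a constitutive chaperone (0.154), Zbtb43 (0.191) and Lhfpl2 (0.193), of which Hspa8 differed by 0.98 in WT and 0.29 in HDAC2-/-, beside 1.04 and 0.35 for Pmaip1. For Bad they were Stimate (0.0638), Tlcd5 (0.0868) and Rab5b (0.0893).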

How the data were processed

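RNA of 12 kidney samples, 3 in each of 4 groups, was hybridised to 1-colour Affymetrix Mouse Gene 2.0 ST arrays. The authors deposited log2 values from robust multi-array average (RMA) normalisation, which corrects background, equalises array distributions and summarises probes per probe set, made per the labels in Transcriptome Analysis Console 4.0. No further normalisation was applied. Array intensities carry no read depth, and precision rests on 3 arrays per group (median SE of a difference 0.17). Of 34472 probe sets, 23521 had 1 gene symbol in the platform annotation, 1820 had several and 9131 had none or were not listed. Probe sets of several symbols entered the test and named no gene.

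Groups were taken from sample titles. limma 3.58.1 in R 4.3.3 fitted 1 mean per group over all arrays (8 residual and 5.94 prior degrees of freedom), with empirical Bayes moderation and Benjamini-Hochberg adjustment over all 34472 probe sets, and calls at adjusted p under 0.05. Differences are log2, ischemic minus unischemic or HDAC2-/- minus WT, with 95% intervals. Two-sided exact permutation tests over arrays were added for single members. The fit was tested on simulated data with 200 shifted probe sets per run, for the genotype comparison at 4 h. It called 6.9% of shifts of 0.5 and 63.5% of shifts of 1, and 3.5% of calls were false. The shifted probe sets were drawn at random, and shifts as small as the differences of the members at 4 h were not simulated. These shares therefore do not give the power for single members, and an uncalled member is not shown to be unchanged. The members and gene lists were chosen with earlier results of these data known, so no test was run over a list. Named were all members in the ischemia comparisons, members without overlap and the 2 with the smallest p between genotypes, up to 4 called genes of each list by size (or the smallest p where none was called), and the 3 most similar genes of each called member. Promoters came from RefSeq (GRCm38.p6), with entries for all members reported outside chromosome 18, and were searched in Python 3.11.15. Alternatives covered scaling, filters, the limma settings, thresholds, other probe sets, small RNA level, a replicate block and leaving out each array.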

Additional observations from a re-analysis of the deposited data

How the results depend on the processing

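Of the counts of members called and the class medians in 6 comparisons, 558 alternative values stayed within the main result's limits and 34 moved. Of the values of single members, 795 kept direction and call, 28 gained a call, 12 lost one and 2 changed sign. Centring or quantile scaling moved the median of all probe sets by at most 0.0136. The calls of Mcl1 in both genotypes were kept under all alternatives except the dimmer probe set in WT (0.47, adjusted p = 0.124).

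The 1 member that fell in WT became 2 with a minimum mean level of 5, with probe sets of 1 symbol, without empirical Bayes, with array weights and with the small RNA covariate (Bcl2 was added at adjusted p = 0.0411, 0.0493, 0.0132 and 0.0413, but Bid with weights, at -0.51 and 0.0326), 0 at an unadjusted p under 0.05 and 2-fold, and 0 to 1 on leaving out an array. In HDAC2-/-, 1 member fell with weights (Bid, -0.53) and 1 rose at 2-fold. Bbc3 passed there with weights, with the covariate and without ischemic WT replicate 2 (adjusted p = 0.0163, 0.0482 and 0.0332). Over both genotypes the 1 that fell became 2 after centring, after quantile scaling and without empirical Bayes, 3 with the level minimum, with 1 symbol, with weights and with the covariate, 0 at adjusted p under 0.1 with 1.5-fold and at 2-fold, and 1 to 2 on leaving out an array (2 without HDAC2-/- replicate 3 or ischemic WT replicate 2), and 1 rose at 2-fold. The pro-apoptotic Bcl2l11 was added to the members that rose with the level minimum, 1 symbol, weights and the covariate (adjusted p = 0.0373, 0.0419, 0.0215 and 0.0325 in limma). It was also added without ischemic WT replicate 2 (adjusted p = 0.0181).

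The pro-apoptotic median became 0.15 in WT and 0.17 in HDAC2-/- with weights. On leaving out an array it ranged from -0.06 to 0.24 in WT, from 0.19 to 0.35 in HDAC2-/-, from -0.03 to 0.14 between genotypes at 4 h and from 0.12 to 0.28 over both genotypes. With the dimmer Mcl1 probe set the anti-apoptotic median was 0.47, 0.78 and 0.62 in WT, HDAC2-/- and both. Bak1 changed sign in WT without ischemic WT replicate 2 (range on leaving out an array -0.35 to 0.03) and was 0 over both genotypes without ischemic WT replicate 1. No member was called between genotypes or in the interaction under the alternatives run. Counts of the other lists moved over 1.5 times under these settings. In HDAC2-/-, array weights gave 3 fallen pro-apoptotic family genes, 3 fallen genes downstream of the mitochondria, 8 risen and 4 fallen death receptor genes, and 8 risen and 2 fallen regulators. The covariate gave 9 risen and 2 fallen regulators, the level minimum or 1 symbol gave 1 fallen regulator, and fits without empirical Bayes gave 0 fallen genes downstream of the mitochondria, 3 risen death receptor genes and 2 risen regulators. In WT, the fallen genes downstream of the mitochondria became 2 with quantile scaling, the level minimum, 1 symbol, weights or the covariate and 0 without empirical Bayes, and the fallen regulators became 2 with weights or the covariate.

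Replicate numbers are shared between the groups, but deviations of same-numbered arrays correlated between -0.373 and 0.444 and only 5 of 12 arrays correlated best with their own number, so the numbers were not taken as pairs. With the replicate number as a block, 2 members fell over both genotypes, Bid (-0.41, adjusted p = 0.032) being added, and no other count of members changed. The cause of these changes was not tested.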
